A study of Mus musculus with 6 samples.

Results

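The genes described here carry the signal of the prolactin receptor and of related cytokine receptors: the receptor gene Prlr, the kinase gene Jak2, the transcription factor genes Stat5a, Stat5b and Stat3, and the feedback inhibitor genes Cish, Socs1, Socs2 and Socs3. They were found as probe sets (groups of short probes on the array) whose platform annotation gives 1 gene symbol, equal to one of these names. This gave 21 probe sets of 8 of the 9 genes, among 45037 probe sets in all. Prlr was not analysed here. The study measured RNA of the mammary fat pads (numbers 4 and 9) in 6 females of C57BL/6J background, 3 wild type (WT) and 3 lacking the peroxisomal membrane channel Pxmp2 (Pxmp2-/-). Mice of both genotypes were ovariectomized on day 21, received estradiol on day 31 and were killed 8 h later, so there was no group without the hormone. The series asks what loss of Pxmp2 does to the growing mammary epithelium, and the knockout is not described as limited to any cell type.

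The prolactin receptor has no kinase of its own. Jak2 bound to it phosphorylates the receptor and STAT5, which pairs up, enters the nucleus and switches on genes that carry a short palindromic site. Growth hormone uses the same Jak2 and STAT5 route in fat and stroma, while the interleukin-6 family acts mainly through STAT3. Among the genes switched on are those of CIS and the SOCS proteins, which bind the receptor or the kinase and damp the signal. In the mammary gland STAT5A is best known for its part in alveolar growth and milk protein synthesis, and STAT3 for its part in involution after weaning.

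The promoters of Cish and Socs3 are shown because these genes are classic STAT targets and are the members whose values the results turn on. Both are printed 5′ to 3′ from the RefSeq table of build GRCm38.p6, from 250 bases before to 50 after the annotated start, with each TTCNNNGAA motif in capitals. The motif reads the same on both strands and was searched with overlaps allowed. The Cish window is chr9:107296409-107296708 on the plus strand, and the Socs3 window is chr11:117969317-117969616 on the minus strand.
Cish: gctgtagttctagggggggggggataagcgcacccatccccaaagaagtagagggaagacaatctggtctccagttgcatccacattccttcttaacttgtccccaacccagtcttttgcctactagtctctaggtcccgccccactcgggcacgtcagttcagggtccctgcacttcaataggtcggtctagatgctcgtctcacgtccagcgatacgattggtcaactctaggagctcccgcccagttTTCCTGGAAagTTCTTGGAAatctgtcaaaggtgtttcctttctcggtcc
Socs3: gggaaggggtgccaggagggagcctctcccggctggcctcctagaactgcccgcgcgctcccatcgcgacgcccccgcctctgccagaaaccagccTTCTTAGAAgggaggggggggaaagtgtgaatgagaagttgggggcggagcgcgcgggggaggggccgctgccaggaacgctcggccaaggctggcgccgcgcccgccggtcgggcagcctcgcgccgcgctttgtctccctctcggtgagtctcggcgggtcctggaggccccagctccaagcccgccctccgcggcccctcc
The Cish window held 2 motifs, starting at bases 251 and 262 of the window, and the Socs3 window held 1, starting at base 97. Of all 32851 promoter windows in the table, 8.3% held at least 1 such motif and 0.457% held at least 2. The table had 9 windows for 7 of the 8 genes with values, and 2 of these windows held the motif. These matches describe letters only, and binding was not measured in this series.

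The arrays were alike in overall level, with medians between 98.5 and 105 arbitrary intensity units. Pxmp2 itself read 2465 to 2797 in WT mice and 260 to 308 in Pxmp2-/- mice, so each label matched its genotype, as far as 1 probe set of unknown place in the targeted gene can show. Adipocyte markers were bright, and all 10 with a value passed the filter on low levels described below, whereas 7 of 16 luminal and 6 of 10 basal epithelial markers did. Of the 7 luminal markers, Cdh1 passed only through Pxmp2-/- mice. The defining epithelial markers Epcam, Krt8, Krt18, Krt5 and Krt14 were all below that filter. The tissue is a mixture, so fewer cells of a type and less RNA per cell cannot be told apart for any gene below. None of the 9 genes lies on chromosome 5, which carries Pxmp2.

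None of these 8 genes differed between genotypes past the threshold, and the values nearest to it were those of Socs3, lower in Pxmp2-/- mice. Of the 21 probe sets, 20 lay above the 40th percentile of mean level and were tested. None passed a limma adjusted p of 0.05 (Benjamini-Hochberg over 27022 probe sets), where 0.0629% of all tested probe sets did. The smallest adjusted p was 0.222, for Socs3. At an unadjusted p under 0.05 there were 2 of the 20 (10%), both lower in Pxmp2-/- mice and both of Socs3, against 16.6% of all tested probe sets in either direction, 6.12% higher and 10.5% lower. Genotypes did not overlap in 3 of the 20 (15%), all lower, against 22.8% of all tested probe sets in either direction and 15.1% lower. The median log2 difference was -0.033 over the 20 and -0.033 over all tested probe sets. These shares were near or under the background. Differences are Pxmp2-/- minus WT of log2(intensity + 16), so the change of a dim transcript comes out smaller than it is.

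**Figure D1:**
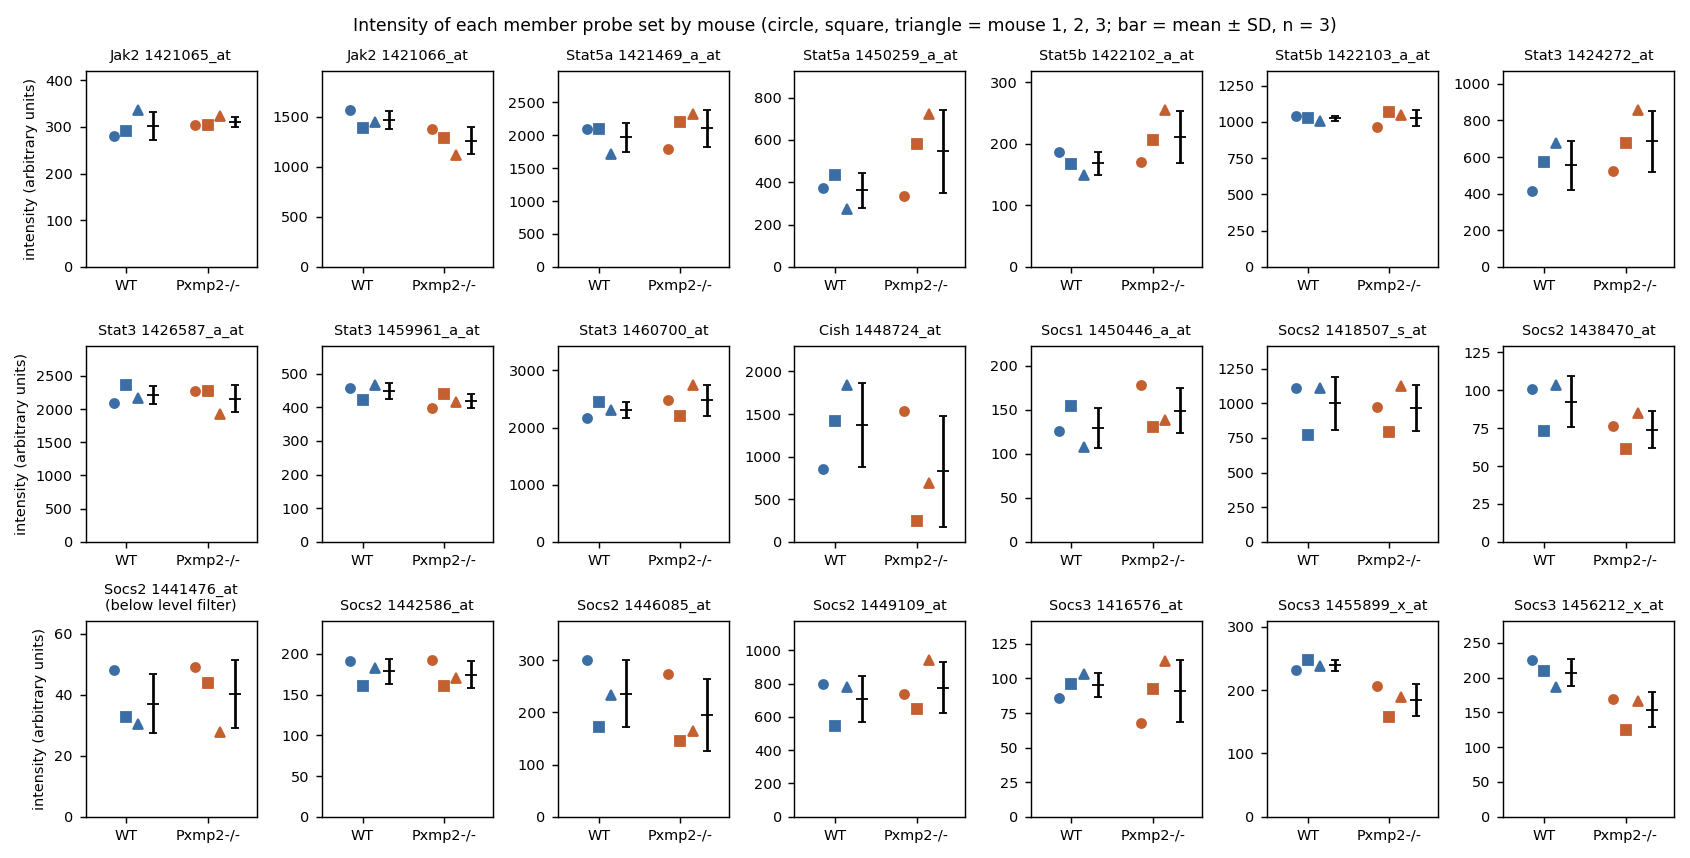
Intensity in arbitrary units (vertical axis, starting at 0, its own scale in each panel) of all 21 probe sets in the 3 WT (blue) and 3 Pxmp2-/- mice (orange), with the mean and SD as bars. The mice of the 2 genotypes separate only for Jak2 1421066_at and Socs3 1455899_x_at and 1456212_x_at, and Cish runs from 249.7 to 1843.

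Jak2, the kinase that starts the signal, had 2 probe sets. The first (1421066_at) read 1566, 1387 and 1449 in WT mice 1 to 3, and 1376, 1289 and 1114 in Pxmp2-/- mice 1 to 3. All 3 Pxmp2-/- mice were below all 3 WT mice, though the gap between the nearest mice was narrow. The log2 difference was -0.22 ± 0.11 (SE), with a limma adjusted p of 0.333. The other probe set (1421065_at) read 303 ± 29.9 and 310 ± 11.0 (SD, n = 3 each), a log2 difference of 0.04 with a 95% interval from -0.19 to 0.26. The probe sets did not point the same way, and the interval of the second ended at 1.20-fold higher.

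Stat5a and Stat5b encode the close relatives that carry most of the prolactin and growth hormone signal, and they lie next to each other, with Stat3 after Stat5a, in the order of protein-coding genes on chromosome 11. One probe set of each was level between genotypes. Stat5a 1421469_a_at read 1968 ± 224 in WT and 2104 ± 282 in Pxmp2-/- mice, a log2 difference of 0.09 with a 95% interval from -0.22 to 0.40. Stat5b 1422103_a_at read 1025 ± 17.8 and 1028 ± 55.3, a log2 difference of 0.0036 with an interval from -0.19 to 0.20. This was the member probe set with the smallest within-group SD (0.06 on the log2 scale), and its interval ended at 1.15-fold higher.

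The other probe set of each STAT5 gene varied more. Stat5a 1450259_a_at read 375, 436 and 273 in WT mice 1 to 3, and 333, 581 and 722 in Pxmp2-/- mice 1 to 3. Pxmp2-/- mice 2 and 3 were above every WT mouse, and Pxmp2-/- 1 lay inside the WT range. The log2 difference was 0.53 ± 0.28 (SE), with a limma adjusted p of 0.372, and it ran from 0.30 without Pxmp2-/- 3 to 0.84 without Pxmp2-/- 1.

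Stat5b 1422102_a_at read 187, 167 and 150 in WT mice and 170, 207 and 255 in Pxmp2-/- mice, in order of mouse number. It had the same shape, with Pxmp2-/- 2 and 3 on top and WT 3 lowest. The log2 difference was 0.29 ± 0.15 (SE, limma adjusted p = 0.365), and it ran from 0.15 without Pxmp2-/- 3 to 0.42 without Pxmp2-/- 1.

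Stat3, which answers mainly to the interleukin-6 family and leptin, had 4 probe sets, none with separate genotypes. The most variable, 1424272_at, read 414, 571 and 677 in WT mice 1 to 3, and 526, 678 and 858 in Pxmp2-/- mice 1 to 3. Here too Pxmp2-/- 2 and 3 were the highest arrays, with WT 3 almost equal to Pxmp2-/- 2. The log2 difference was 0.30 ± 0.22 (SE), with a limma adjusted p of 0.502, and it ran from 0.11 without WT 1 to 0.48 without Pxmp2-/- 1. The remaining Stat3 probe sets differed by -0.04, -0.10 and 0.10, with 95% intervals that together span -0.30 to 0.35. Pxmp2-/- 2 and 3 were thus the highest arrays for both probe sets of Stat5a and of Stat5b and for 1 of 4 of Stat3. Over all tested probe sets Pxmp2-/- 1 also stood apart from them, with a second principal component score of 26.7 against -15.7 to 6.61 for the other 5 arrays, and the part of this in the member values was not tested.

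**Figure D2:**
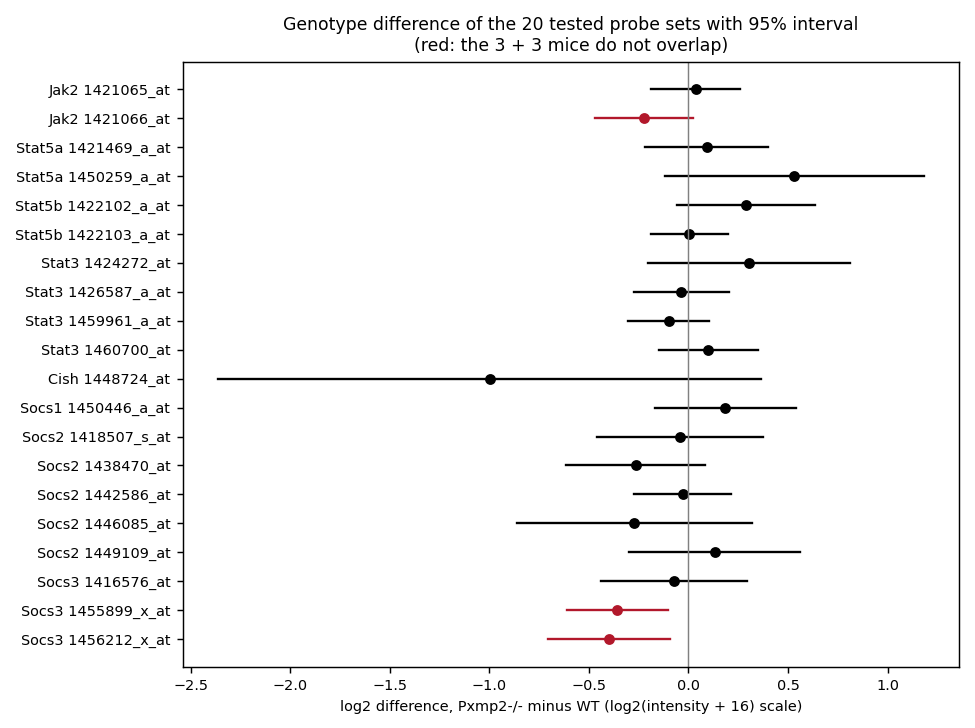
Log2 difference between genotypes (horizontal axis, Pxmp2-/- minus WT) with its 95% limma interval for the 20 tested probe sets, with red for those whose mice do not overlap. All intervals reach 0 except those of Socs3 1455899_x_at and 1456212_x_at, and the widest is that of Cish, from -2.36 to 0.37.

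Cish, whose product CIS competes with STAT5 for receptor docking sites, was the least even member. Its probe set (1448724_at) read 853, 1423 and 1843 in WT mice 1 to 3, and 1537, 249.7 and 691 in Pxmp2-/- mice 1 to 3. Pxmp2-/- 2 and 3 were below every WT mouse, while Pxmp2-/- 1 was above WT 1 and WT 2, so the genotypes overlapped. The log2 difference was -1.00 ± 0.59 (SE, n = 3 each) with a limma adjusted p of 0.415. It moved to -1.61 without Pxmp2-/- 1 and to -0.34 without Pxmp2-/- 2, and it did not pass the adjusted threshold in either fit.

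The spread of Cish within a genotype stood out against the whole array. Its within-group SD was 0.98 on the log2 scale, where the median of all tested probe sets was 0.14, and only 0.037% of tested probe sets had a larger one. From the lowest to the highest mouse its intensity spanned 7.38-fold. Of the 10 probe sets with a larger SD, 3 were unnamed, and 1 was of Acss2, which encodes a cytosolic acetyl-CoA synthetase and is named here after its values were seen (992, 443 and 188 in WT mice 1 to 3, and 204, 49.7 and 260 in Pxmp2-/- mice 1 to 3). Among the members, 12 of the 20 tested probe sets had an SD above that median.

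**Figure D3:**
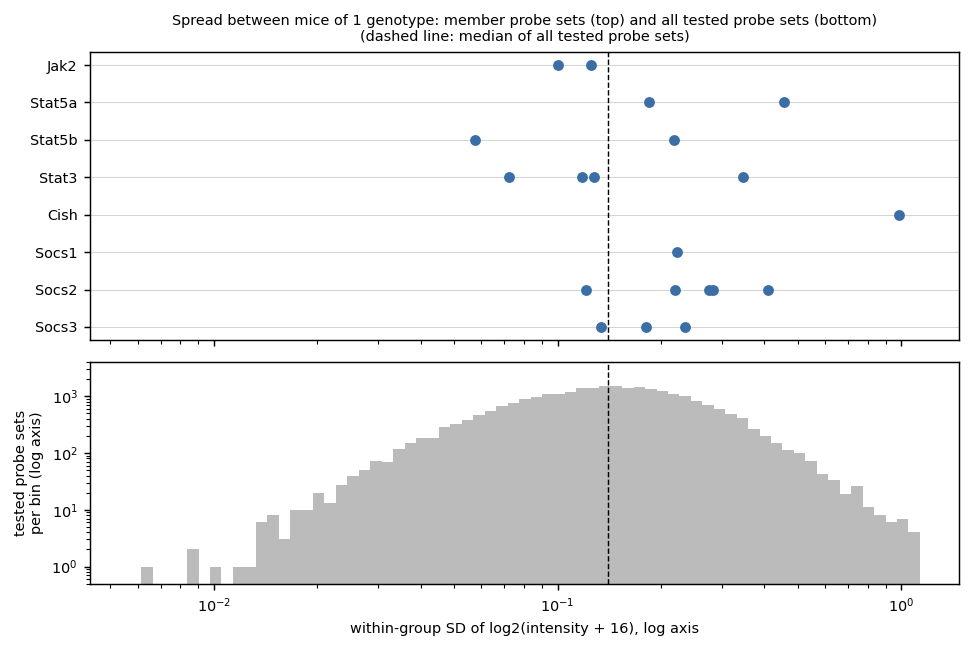
Within-group SD of log2(intensity + 16) (horizontal log axis) of the 20 tested member probe sets by gene (top) and, as a histogram with a log count axis, of all 27022 tested probe sets (bottom), with the median of 0.14 dashed. Cish, at 0.98, sits at the right edge of the distribution, followed by Stat5a 1450259_a_at at 0.46 and Socs2 1446085_at at 0.41.

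Bcl6 and Pim1, among the 16 tested genes of the STAT5 target list, were read in Pxmp2-/- 2, where Cish was lowest. Both were singled out after their values were seen. Bcl6 encodes a transcriptional repressor, and its gene is known to be held down by STAT5. Its probe set 1421818_at read 890, 793 and 878 in WT mice 1 to 3, and 554, 1900 and 821 in Pxmp2-/- mice 1 to 3. Its second probe set, 1450381_a_at, read 128, 144 and 135 in WT mice and 175, 389 and 128 in Pxmp2-/- mice. Both were highest in Pxmp2-/- 2, the mouse with the lowest Cish. In Pxmp2-/- 3, where Cish was next lowest at 691, both Bcl6 values (821 and 128) were inside the WT range. Most tested lymphocyte marker probe sets were also highest in Pxmp2-/- 2. These included Cd3g at 180 (44.1 to 82.9 in the others), Cd3d at 164 (41.9 to 77.9) and Ms4a1 1423226_at at 127 (44.1 to 89.8). Of these, Cd3g and Ms4a1 1423226_at passed the level filter only through Pxmp2-/- mice. The exceptions were Cd8a 1440164_x_at, highest in Pxmp2-/- 1 at 98.0, Cr2, highest in Pxmp2-/- 3 at 83.0, and Pax5, highest in WT 2 at 161. The part of lymphocytes in the Bcl6 values was not tested. Pim1 1435458_at, for a survival kinase induced by STATs, was lowest in Pxmp2-/- 2 at 751, with the other mice between 945 and 1650. Pim1 1423006_at was instead highest in Pxmp2-/- 2, at 640. Of the other listed targets, Pim2 was highest in that mouse, at 141 (94.0 to 121 in the others). Wap (463), Igfals (955), Ccnd1 1417420_at (1091) and Ccnd1 1448698_at (674) were lowest there. The remaining tested targets had neither extreme in that mouse. These are values of single mice, and no test was made on them.

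Socs2, which limits growth hormone signalling, had 6 probe sets, and 1441476_at was below the level filter in its mean, at 27.7 to 49.2. The genotypes overlapped in all 6. Probe set 1418507_s_at read 1113, 774 and 1110 in WT mice 1 to 3, and 976, 792 and 1128 in Pxmp2-/- mice 1 to 3, and 1449109_at read 797, 547 and 779 against 738, 646 and 943. In both of these, as in the other 3 tested probe sets, mouse 2 was the lowest of its genotype. Their log2 differences were -0.04 and 0.13, with 95% intervals from -0.46 to 0.37 and from -0.30 to 0.56.

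The other tested Socs2 probe sets differed by -0.26 (1438470_at), -0.03 (1442586_at) and -0.27 (1446085_at), with limma adjusted p of 0.4, 0.905 and 0.608. The last of them, 1446085_at, was lowest in Pxmp2-/- 2 at 146, with WT mice between 173 and 301. It was also the most uneven of the tested Socs2 probe sets, with a within-group SD of 0.41. Pxmp2-/- 2 was the lowest array for 1438470_at as well, at 61.0 with WT 2 next at 73.0. In 1442586_at it was level with WT 2, at 160.4 and 161.

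Socs1, an inhibitor of Jak kinases that is best known for restraining interferon signalling, had 1 probe set. It read 126, 154 and 108 in WT mice 1 to 3, and 178, 131 and 138 in Pxmp2-/- mice 1 to 3. The genotypes overlapped, with Pxmp2-/- 1 highest and WT 3 lowest. Its log2 difference was 0.18 ± 0.15 (SE), with a limma adjusted p of 0.557.

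Socs3, the feedback inhibitor of interleukin-6 type and leptin receptors, was the member nearest to the threshold. Probe set 1455899_x_at read 231, 248 and 239 in WT mice 1 to 3, and 207, 157 and 189 in Pxmp2-/- mice 1 to 3. Probe set 1456212_x_at read 226, 209 and 187 in WT mice and 170, 125 and 167 in Pxmp2-/- mice. In both, every Pxmp2-/- mouse was below every WT mouse, and Pxmp2-/- 2 was lowest.

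The log2 differences of these probe sets were -0.36 ± 0.11 and -0.40 ± 0.13 (SE, n = 3 each), with unadjusted limma p of 0.0123 and 0.0167 and adjusted p of 0.222 and 0.232. Leaving out single mice gave -0.44 to -0.26 for the first and -0.47 to -0.27 for the second, each smallest without Pxmp2-/- 2. The ending _x_at marks probe sets with probes that can also bind other transcripts. The third Socs3 probe set, 1416576_at, without that ending, read 85.9, 95.9 and 103 in WT mice and 67.7, 92.5 and 113 in Pxmp2-/- mice. It held both the lowest and the highest value in Pxmp2-/- mice, and its log2 difference was -0.07 with a 95% interval from -0.44 to 0.29. The genotypes thus separated in 2 of the 3 Socs3 probe sets, and the interval of the third includes the size of the other two.

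Among 12774 other named genes, those whose profile over the 6 arrays was most like that of Socs3 1455899_x_at were B4galt4, Elk3 and 2810410L24Rik. The measure was the root mean square difference in log2 level after each gene's mean was taken off, and it was 0.0351, 0.0395 and 0.0498, against a median of 0.22 over all genes compared. Elk3 encodes an Ets-family transcription factor and B4galt4 a galactosyltransferase. The likeness covers both genotype and mouse, and with 6 arrays and this many genes some close profiles are found for any gene.

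The wider pathway was read through 7 lists of ligands, receptors, kinases, brakes, adaptors and target genes, with 121 genes in all. Of these, 114 had a value and 98 a tested probe set, 176 probe sets in total. None of the 176 passed the adjusted threshold in either direction. At an unadjusted limma p under 0.05 19 were higher (10.8%, against 6.12% of all tested probe sets) and 6 lower (3.41%, against 10.5%). Of the 176, 4 had 1 genotype with a mean under the level filter, and 3 of these are among the 25 with such a p. The genotypes did not overlap in 36 (20.5%), against 22.8% of all tested probe sets. The median log2 difference over the 176 was 0.03, and the shift of -0.033 over all tested probe sets went to -0.00058 after quantile normalization.

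**Figure D4:**
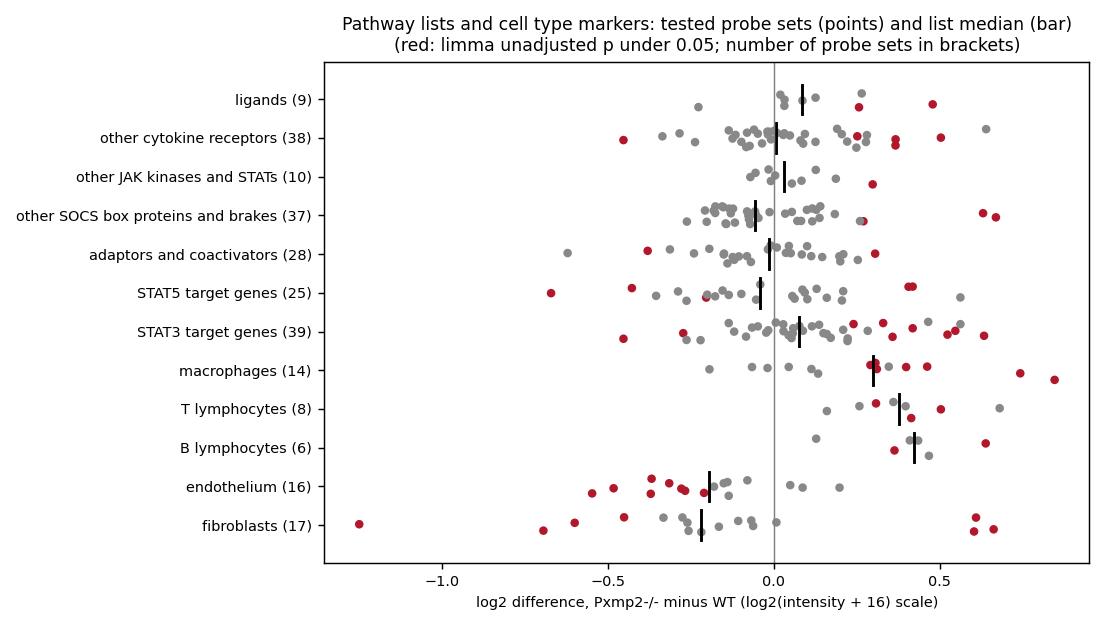
Log2 difference between genotypes (horizontal axis, Pxmp2-/- minus WT) of each tested probe set (points, red for an unadjusted limma p under 0.05) and the median (bar) for the 7 pathway lists and 5 lists of cell type markers. The pathway medians lie between -0.06 and 0.09, and those of the macrophage, T and B lymphocyte markers are 0.30, 0.38 and 0.42, and those of endothelium and fibroblasts -0.19 and -0.22.

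Ligands were mostly too dim to test, with 7 above the filter of the 16 that had a value. The prolactin gene Prl read 42.4 to 57.5 over the 6 mice, below the filter intensity of 59.1. Growth hormone (Gh 1456595_x_at) read 56.4 ± 6.30 in WT and 70.4 ± 4.70 in Pxmp2-/- mice, so it passed the filter only through the Pxmp2-/- group. The other Gh probe set, 1460613_x_at, had a log2 difference of 0.13, and its genotypes overlapped. Both hormones are made chiefly by the pituitary. Cardiotrophin (Ctf1) had a log2 difference of 0.48 ± 0.19 and cardiotrophin-like Clcf1 one of 0.27 ± 0.20, with adjusted p of 0.269 and 0.533. The other Clcf1 probe set differed by 0.03. None of the 9 ligand probe sets tested passed the adjusted threshold.

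Other cytokine receptors were split, with 20 of 38 probe sets higher and 18 lower and a median of 0.006. The interleukin-2 receptor alpha chain gene Il2ra read 78.6 ± 4.52 in WT and 106 ± 13.2 in Pxmp2-/- mice, a log2 difference of 0.37 ± 0.10 with a limma adjusted p of 0.207. Il7r, for the interleukin-7 receptor of lymphocytes, differed by 0.50 and Il4ra, for the interleukin-4 receptor, by -0.45, with adjusted p of 0.256 and 0.254, and another probe set of Il4ra by -0.05. Among other Jak kinases and STATs, the interleukin-4 effector Stat6 differed by 0.30 in one probe set and by -0.02 in its other, Jak1 by 0.13, with its other probe sets at -0.07 and 0.19, and Jak3 by 0.05. None of those 10 probe sets passed, and their smallest adjusted p was 0.293.

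Among the other SOCS proteins, phosphatases and further brakes, the 16 listed genes were all tested, in 37 probe sets with a median of -0.06. The lowest p belonged to genes of blood cells. Ptpn6 1460188_at, for the phosphatase SHP-1, read 78.5 ± 9.77 in WT and 135 ± 25.9 in Pxmp2-/- mice. Its log2 difference was 0.67 ± 0.15 with a limma adjusted p of 0.162. The brighter Ptpn6 1456694_x_at, at 1125 ± 106 and 1358 ± 95.7, differed less, by 0.27 ± 0.10 (adjusted p = 0.265). Ptprc, which encodes the leukocyte phosphatase CD45, differed by 0.63 ± 0.22 (adjusted p = 0.248). The STAT inhibitor gene Pias1 differed by -0.26 (adjusted p = 0.329), with its other probe sets at -0.08, -0.12 and -0.14. For Ptpn6 and Ptprc every Pxmp2-/- mouse was above every WT mouse.

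Immune cell markers were higher in mean beside these values, none past the threshold. Of 14 macrophage probe sets, 11 had a higher mean, where 57.3% of all tested probe sets had a lower one. At an unadjusted limma p under 0.05, 7 of the 14 were higher (50%) and 0 lower, against 6.12% and 10.5% of all tested probe sets. Their smallest adjusted p was 0.0589, for Lyz2. The summed intensity of 11 macrophage markers, all of them tested, was 8549 to 9283 in WT and 10169 to 12908 in Pxmp2-/- mice. That of 6 tested T lymphocyte markers of 12 listed was 514 to 678 and 639 to 1212, and Il7r is itself one of these markers. That of 5 tested B lymphocyte markers of 10 was 815 to 992 and 1038 to 1384. Cd3g, with means of 50.3 in WT and 103 in Pxmp2-/- mice, Ms4a1 1423226_at, with 46.6 and 87.3, and Cr2, with 55.4 and 73.3, passed the filter only through Pxmp2-/- mice. The T cell markers Cd3e and Cd4 and the B cell marker Cd79a were below the filter. The part of these cells in the receptor and phosphatase values was not tested.

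Markers of endothelium and fibroblasts were mostly lower in mean, none past the threshold. The summed intensity of the endothelial markers was 23715 to 25440 in WT and 19701 to 22193 in Pxmp2-/- mice. Of their 16 probe sets, 13 had a lower mean, against 57.3% of all tested probe sets, with a median of -0.19. At an unadjusted limma p under 0.05, 8 of the 16 were lower (50%) and 0 higher, against 10.5% and 6.12% of all tested probe sets. The summed intensity of the fibroblast markers was 53826 to 63589 in WT and 45709 to 54340 in Pxmp2-/- mice. Of their 17 probe sets, 13 had a lower mean, with a median of -0.22. At the same unadjusted p, 4 of the 17 were lower (23.5%) and 3 higher (17.6%), so this list was split. The lower means of both lists were in the same genotype as those of Socs3 1455899_x_at and 1456212_x_at, Jak2 1421066_at, Id1 and Crebbp. The part of endothelium and fibroblasts in those values was not tested. Of 9 basal epithelial probe sets, 7 had a lower mean, with a median of -0.16. At the same unadjusted p, 3 of these 9 were lower (33.3%) and 1 higher (11.1%). Of 9 luminal probe sets, 5 had a lower and 4 a higher mean, with a median of -0.02. The part of epithelium in any of these values was not tested.

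Adaptors and coactivators had a median of -0.01 over 28 probe sets. The coactivator gene Crebbp, for a histone acetyltransferase that STATs recruit, read 361 ± 34.3 in the WT and 273 ± 5.32 in the Pxmp2-/- group. On the log2 scale it differed by -0.38 ± 0.09 (limma adjusted p = 0.183). Its other probe sets had differences of -0.11 and -0.62, so all 3 were lower in mean. The docking protein gene Gab2 differed by 0.31 and the adaptor gene Shc1 by 0.25, with adjusted p of 0.24 and 0.309. The other probe sets of Gab2 differed by -0.24 and 0.10, and that of Shc1 by 0.0095.

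Known targets of STAT5 had a median log2 difference of -0.04 over 25 tested probe sets, 12 higher and 13 lower in mean. Of the 22 listed genes 6 were below the filter, among them the casein genes Csn2 and Csn1s1, the alveolar transcription factor gene Elf5 and Tnfsf11, which encodes RANKL. Csn2 probe sets ranged from 18.6 to 52.9 over the 6 mice and those of Tnfsf11 from 2.92 to 35.5. The differentiation inhibitor gene Id1 read 1971, 1896 and 1897 in WT mice and 1779, 1284 and 1265 in Pxmp2-/- mice, a log2 difference of -0.43 ± 0.14 with a limma adjusted p of 0.23. Its Pxmp2-/- mice were all below the WT mice, with mice 2 and 3 the lowest, as for Cish.

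The milk protein gene Lalba differed by 0.41 (adjusted p = 0.232), at 74.1 ± 15.5 and 102 ± 4.59, and Pim1 1423006_at by 0.42 (adjusted p = 0.263), with its other probe set at -0.26. The limma fit thus gave no STAT5 target past the threshold in either direction, with 2 probe sets higher (8%) and 3 lower (12%) at an unadjusted p under 0.05, against 6.12% and 10.5% of all tested probe sets.

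Known targets of STAT3 had a median of 0.08 over 39 tested probe sets. In mean 28 were higher and 11 lower, where 57.3% of all tested probe sets were lower. At an unadjusted limma p under 0.05, 7 were higher (17.9%, against 6.12% of all tested probe sets) and 2 lower (5.13%, against 10.5%), and none passed after adjustment. One of the 7, of the protease inhibitor gene Timp1, passed the level filter only through Pxmp2-/- mice, at 52.9 ± 7.19 in WT and 70.5 ± 8.21 in Pxmp2-/- mice. The immediate early gene Fos read 72.1, 80.0 and 73.6 in WT mice and 138, 95.5 and 149 in Pxmp2-/- mice, which differed by 0.63 ± 0.15 on the log2 scale (adjusted p = 0.174). The fibrinogen-like gene Fgl2 differed by 0.52 (adjusted p = 0.219) with its other probe set at 0.47, and the lysosomal protease gene Ctsb by 0.36 (adjusted p = 0.227) with its other probe sets at 0.05, 0.06 and 0.24.

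For Fos, Fgl2 and Ctsb every Pxmp2-/- mouse was above every WT mouse in the probe set named. Fgl2, Ctsb and Cd14 are also made by macrophages, whose markers were higher in the same mice as given above, and the part of macrophages in these values was not tested. Cd14 itself, a marker of both lists, read 690 to 832 in WT and 695 to 835 in Pxmp2-/- mice.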

How the data were processed

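Per the labels' protocols, total RNA was extracted with a kit for fatty tissue and labelled for Affymetrix arrays, 1 per mouse. The values are probe set intensities on a linear scale, as deposited. Their summary and scaling are not given in the sources used here. Groups came from the labelled genotype, with 3 mice each, and mouse numbers from the titles. Every column belonged to a sample (0 unmatched).

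Intensities were transformed to log2(intensity + 16). Probe sets above the 40th percentile of mean log2 level (an intensity of 59.1) were tested, 27022 in all, by lmFit and eBayes of limma 3.58.1 under R 4.3.3 (two-sided, Benjamini-Hochberg, threshold 0.05). Errors are limma's moderated SE or the SD of intensities, and intervals are 95% limma intervals. The fit was tested on simulated data with independent noise for each probe set, so shifts shared by the probe sets of an array were not covered. The number of arrays limits the precision.

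Symbols came from the platform annotation, and a RefSeq table (GRCm38.p6) matched by Entrez number changed 0 of them, with 204 single-symbol probe sets unmatched. Of all probe sets, 34945 had 1 symbol, 932 several and 9160 none. Named were all members and, per pathway list, genes past the threshold and then 3 by smallest p. For the member with the smallest p, the 3 genes of most similar profile were named. Members and lists were chosen with earlier results of these data known. Alternatives covered scaling, pseudocount, filter, variance model, weights, block, probe set type, threshold and single mice. Plots used matplotlib 3.10.9.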

Additional observations from a re-analysis of the deposited data

How the results depend on the processing

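No member and no pathway probe set passed the threshold under any alternative, including an adjusted p of 0.10, and the smallest adjusted p of a member under any was 0.116, for Socs3 1455899_x_at. Over all probe sets the 17 calls became 1 with no level filter, 34 with a mean-variance trend, 26 with array weights, 31 at 0.10, and 1 to 33 when single mice were left out. Over all tested probe sets same-numbered mice did not deviate together (correlations of 0.022, 0.044 and -0.12), so numbers were not taken as pairs. The replicate block gave 1 call over all probe sets and 0 among members. With it the unadjusted limma p fell from 0.205 to 0.016 for Stat3 1424272_at. It fell from 0.117 to 0.0279 for Socs2 1438470_at and from 0.318 to 0.0465 for Socs2 1446085_at. For Socs3 1455899_x_at and 1456212_x_at it rose from 0.0123 to 0.0271 and from 0.0167 to 0.0229. Non-overlapping members numbered 2 after quantile normalization and 3 after median centring, in place of 3, an alternative chosen after seeing the data. Of the 20 tested member probe sets, 12 kept their direction in every alternative. Near 0, Socs2 1418507_s_at turned to 0.0179 and Stat3 1426587_a_at to 0.0053 after quantile normalization, and Stat5b 1422103_a_at to -0.0055 after median centring. Leaving out single mice, the log2 difference ran from -0.0145 to 0.112 for Jak2 1421065_at, -0.0046 to 0.206 for Stat5a 1421469_a_at, -0.0252 to 0.0477 for Stat5b 1422103_a_at and -0.0769 to 0.0455 for Stat3 1426587_a_at. It ran from -0.215 to 0.0894 for Socs2 1418507_s_at, -0.0975 to 0.0239 for 1442586_at, -0.0396 to 0.252 for 1449109_at and -0.218 to 0.0923 for Socs3 1416576_at. Why these changed was not tested.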
